A study of Mus musculus with 36 samples.

Results

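Liver DNA methylation was examined at the 10 genes that carry the growth hormone signal from its receptor to STAT5 and on to the target genes: Ghr, Jak2, Stat5a, Stat5b, Socs2, Socs3, Cish, Igf1, Igfals and Bcl6. The genes were taken by name, out of 21218 autosomal protein-coding genes with enough reads. For each, all CpGs from 5 kb before the annotated gene start to 1 kb past its end were used, which gave 6874 of the 18887127 autosomal CpGs. These CpGs fell into 1187 windows of 500 nt. A window was tested if it held 5 or more CpGs and no animal had under 30 reads in it, which left 528 member windows among 1456902 over the autosomes. The assay was whole-genome bisulfite sequencing of 24 mice, in which unmethylated cytosines are read as thymine. The parents were inbred C57BL/6N (B6) and C3H/HeN (C3) mice, with 3 sires and 3 dams of each. The offspring were 3 sons and 3 daughters from B6 dams and C3 sires (B6C3F1) and 3 sons and 3 daughters from C3 dams and B6 sires (C3B6F1), 1 son and 1 daughter from each of 3 families per cross. Parents were mated at 10 weeks, the litters were weaned at parental week 16, and every animal was killed at 20 weeks. Dams had therefore borne and nursed a litter, and daughters had not. All dams were inbred while all daughters were F1 hybrids. By the paper's methods, parents came from a commercial colony and were housed singly or in mating pairs. F1 animals shared cages with others of their sex. Breeding history, hybrid genome, origin and housing thus cannot be told apart in any comparison of dams with daughters. Between dams and sires, sex and having borne a litter cannot be told apart. A sex difference of the parents means dams minus sires in what follows. Each autosomal CpG was covered by 19.4 to 32.8 reads per animal, and mean methylation of an animal lay between 75.0% and 77.5%.

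Growth hormone binds its receptor Ghr on hepatocytes and activates the receptor-bound kinase Jak2, which phosphorylates the transcription factors Stat5a and Stat5b. STAT5 then switches on the genes of the circulating growth factor Igf1, of its serum carrier Igfals, and of Socs2, Socs3 and Cish, which feed back to damp receptor signalling. Bcl6 is a transcriptional repressor that can occupy STAT5 sites. In rodents the pituitary releases growth hormone in pulses in males and more steadily in females, and the liver reads this pattern through STAT5. Cytosine methylation of CpG dinucleotides is usually low at active promoters and enhancers and high elsewhere.

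The 4 windows called in any of the 6 comparisons over both strains, both sexes or both crosses, and a window of Igfals in which the sexes differed in both generations, carry most of what follows. Parts of their sequences are shown from the mm9 genome, 5′ to 3′ on the strand of the gene, with the measured CpGs in capitals. In Socs2, which lies on the minus strand, the stretch is intronic and its 9 CpGs were lower in dams than in any other group.

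Socs2 chr10:94873793-94874090: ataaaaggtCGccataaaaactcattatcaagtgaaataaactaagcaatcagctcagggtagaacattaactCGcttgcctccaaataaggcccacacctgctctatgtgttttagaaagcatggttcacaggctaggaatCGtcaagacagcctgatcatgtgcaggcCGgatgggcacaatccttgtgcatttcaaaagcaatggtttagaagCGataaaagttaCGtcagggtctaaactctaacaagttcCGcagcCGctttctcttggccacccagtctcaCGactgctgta

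In Ghr, also on the minus strand, 2 stretches are shown because dams were low at both. The first lies in the intron that follows the first exon of an internal transcript starting at position 3421644 of chromosome 15. The second lies 4.9 kb further along the gene, also in an intron.

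Ghr chr15:3421106-3421399: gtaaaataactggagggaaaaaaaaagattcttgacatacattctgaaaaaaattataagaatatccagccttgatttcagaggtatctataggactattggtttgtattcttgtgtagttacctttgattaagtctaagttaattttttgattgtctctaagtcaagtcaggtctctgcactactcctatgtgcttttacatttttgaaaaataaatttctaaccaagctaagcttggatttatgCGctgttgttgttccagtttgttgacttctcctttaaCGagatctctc

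Ghr chr15:3416594-3416664: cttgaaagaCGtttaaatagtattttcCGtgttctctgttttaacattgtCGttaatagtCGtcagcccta

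Upstream of Igfals, on the plus strand, the stretch is shown because 4 of its 5 CpGs had lower methylation in B6 than in C3 parents. The C3 base differs from the mm9 and B6 base at 2 places in it, C52T and C79T, with the mm9 base first, the C3 base last, and positions counted from 1 at the 5′ end.

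Igfals chr17:25012028-25012287: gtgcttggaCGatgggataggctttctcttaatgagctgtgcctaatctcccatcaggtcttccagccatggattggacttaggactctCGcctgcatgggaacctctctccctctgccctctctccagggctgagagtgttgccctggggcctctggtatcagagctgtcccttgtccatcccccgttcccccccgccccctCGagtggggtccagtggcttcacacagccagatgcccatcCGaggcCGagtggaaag

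A stretch of the Igfals coding exon is shown because females of both generations were lower than males in its window.

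Igfals chr17:25017501-25017800: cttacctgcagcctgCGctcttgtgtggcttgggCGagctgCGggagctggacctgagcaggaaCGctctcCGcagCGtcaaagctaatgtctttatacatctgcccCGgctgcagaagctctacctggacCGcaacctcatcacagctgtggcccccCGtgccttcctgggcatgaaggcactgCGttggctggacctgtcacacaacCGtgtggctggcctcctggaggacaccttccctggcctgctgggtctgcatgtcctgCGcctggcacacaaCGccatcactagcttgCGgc

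Few of the 528 tested member windows were called. A window was called where the 2 sides differed at a Benjamini-Hochberg adjusted p below 0.05 in a limma fit over all windows and by at least 20 percentage points (points) of mean methylation. Between B6 and C3 parents 1 member window was called, or 0.189% of 528, where the background over all windows was 0.494%. Between dams and sires 2 were called, or 0.379% against a background of 0.104%, and both were lower in dams, as were 0.0357% of all windows. Between dams and F1 daughters 2 were called, or 0.379% against 0.0198%, both lower in dams, as were 0.0190% of all windows. Between F1 daughters and sons none was called by limma or by a quasi-binomial test, where the background was 0.0510%, although 87 member windows had an unadjusted p below 0.05 by limma (background 7.02%) and 80 by the quasi-binomial test. Between sires and F1 sons and between the reciprocal crosses none was called by either test, against backgrounds of 0.00227% and 0.000686%, with 34 and 43 windows at an unadjusted p below 0.05 by limma (backgrounds 6.26% and 6.69%) and 30 and 49 by the quasi-binomial test. All backgrounds here are by limma, and none is given for the quasi-binomial test, so its counts cannot be set against them. The comparisons of dams with sires and of dams with daughters share the dams and are not independent of each other.

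With a smaller step of at least 10 points, 12 windows differed between the strains (2.27%, background 2.39%), with 5 higher and 7 lower in B6 (backgrounds 1.06% and 1.33%). Between dams and sires 19 differed (3.6%, background 0.573%), with 6 higher and 13 lower in dams (backgrounds 0.333% and 0.240%). Between F1 daughters and sons 6 differed (1.14%, background 0.255%), with 1 higher and 5 lower in daughters (backgrounds 0.225% and 0.0305%). Between dams and daughters 8 differed (1.52%, background 0.136%), all lower in dams (background 0.12%). The median difference over the 528 windows was −0.396 points between the strains, −0.167 between dams and sires, 0.0994 between daughters and sons and −0.264 between dams and daughters, beside −0.634, −0.520, −0.0944 and −0.368 over all tested windows. The sex difference itself differed between parents and F1 animals at an adjusted p below 0.05 in 4 member windows (background 0.0428%), and that of B6 parents from that of C3 parents in none (background 0.00178%), with 41 at an unadjusted p below 0.05 (background 5.42%). If 2 CpGs sufficed, 7 member windows were called between dams and sires (background 0.115%) and 4 between dams and daughters (background 0.0174%). Windows shifted by 250 nt gave 5 between dams and sires (background 0.104%) and 1 between daughters and sons (background 0.0482%), and an equal weight for each CpG, a setting chosen after seeing the data, gave 1 between daughters and sons (background 0.0480%). Windows of 10 to 20 points are named in what follows after their values were seen, apart from the start sites and the largest difference of each gene without a called window.

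Methylation at the start sites was low. In the windows at the start sites of Ghr, Jak2, Stat5b, Socs2, Socs3 and Bcl6, the mean over 24 animals was between 0.3% and 0.5%. The windows at the starts of Stat5a (11.9% ± 4.6, SD), Cish (12.0% ± 3.7), Igf1 (10.7% ± 4.5) and Igfals (12.9% ± 4.0) were low as well but not free of methylation. The window at the Igf1 start held 2 CpGs and was not tested. Of the other 9, the Cish start window was the one that differed between strains at an adjusted p below 0.05, with 8.0% ± 2.2 in B6 and 15.8% ± 2.8 in C3 parents (SD, n = 6 each, −7.8 points, limma adjusted p = 0.00129), and 3 SNVs lay in that window.

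**Figure D1:**
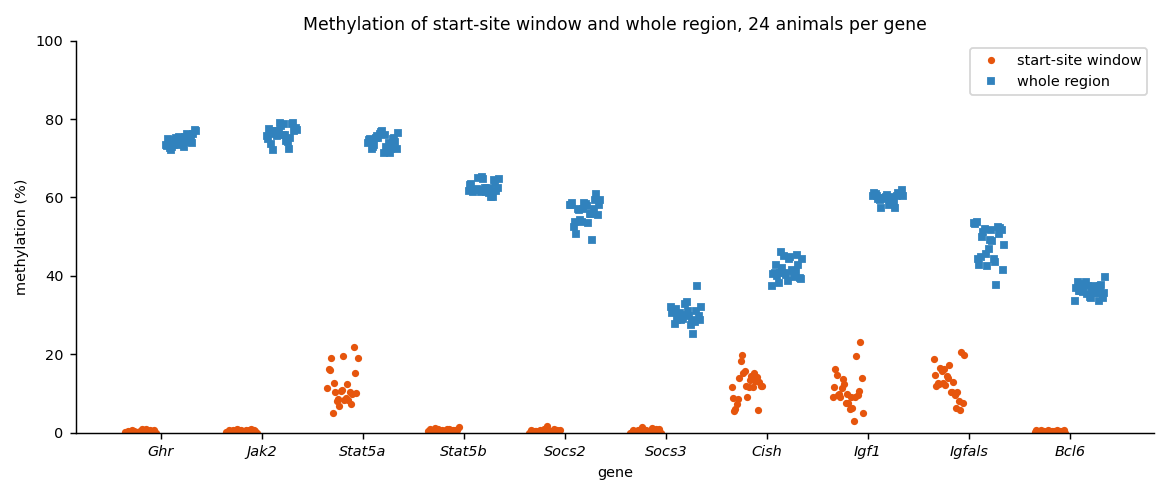
Percent methylation of each of the 10 genes in the 24 animals, at the window holding the start site and over the whole region from 5 kb before the gene to 1 kb past its end; each point is 1 animal. Start windows of Ghr, Jak2, Stat5b, Socs2, Socs3 and Bcl6 stand near 0, and whole-region levels run from about 30% at Socs3 to about 76% at Jak2.

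Over the whole region, mean methylation differed widely between the genes. Jak2 (76.3% ± 2.0, SD, n = 24), Ghr (74.5% ± 1.4) and Stat5a (74.2% ± 1.7) stood highest and overlapped each other. Stat5b (62.5% ± 1.5), Igf1 (59.9% ± 1.2) and Socs2 (56.3% ± 2.9) followed, then Igfals (48.0% ± 4.5), Cish (41.5% ± 2.4), Bcl6 (36.3% ± 1.6) and Socs3 (30.2% ± 2.4). Of neighbours in this order below the first group, Stat5b and Igf1, Igf1 and Socs2, and Igfals and Cish differed by less than the sum of their SDs. These levels weigh a CpG by its reads. With an equal weight for each CpG, Ghr (74.3% ± 1.2) stood above Stat5a (71.8% ± 0.70) and Jak2 (66.7% ± 0.37), with Jak2 below both in all animals, Igf1 (59.7% ± 0.92) and Stat5b (59.5% ± 0.54) were level, and Socs2 was at 47.8% ± 0.94.

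The receptor gene Ghr held the largest difference of the 10 genes between dams and all other animals. The window chr15:3421001-3421500 has 5 CpGs, 3 of them in the untranslated first exon of the internal transcript and 2 in the intron printed above, and lies 112241 bp past the gene start. B6 sires had 87.1%, 86.4% and 86.5%, and C3 sires 80.2%, 72.8% and 81.7%. B6 dams had 51.2%, 45.2% and 50%, and C3 dams 35.9%, 42.2% and 34.4%. All 6 dams lay below all 6 sires in this window, with no overlap in either strain. The B6C3F1 sons had 75.5%, 82.7% and 79.4% and their sisters 79.5%, 83.3% and 77%. The C3B6F1 sons had 76.8%, 82.6% and 81.8% and their sisters 82.1%, 82.0% and 79.3%. Daughters of either cross thus stood with the males. The mean was 82.4% ± 5.5 in sires, 43.1% ± 7.0 in dams, 79.8% ± 3.1 in F1 sons and 80.5% ± 2.3 in F1 daughters (SD, n = 6 each). Dams were 39.3 points below sires (−39.3, log2 ratio of methylated to unmethylated reads −2.62 ± 0.15, SE, limma adjusted p = 4.41e-13). The step was −37.8 points in B6 and −40.7 in C3. Dams differed from daughters by −37.4 points (adjusted p = 1.58e-11), whereas daughters differed from sons by 0.7 points (adjusted p = 0.975). The sex difference of the parents was 40.0 points more negative than that of the F1 animals (−40.0, adjusted p = 1.36e-08). Within the parents, B6 stood 9.9 points above C3 in the same window (adjusted p = 0.00171).

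**Figure D2:**
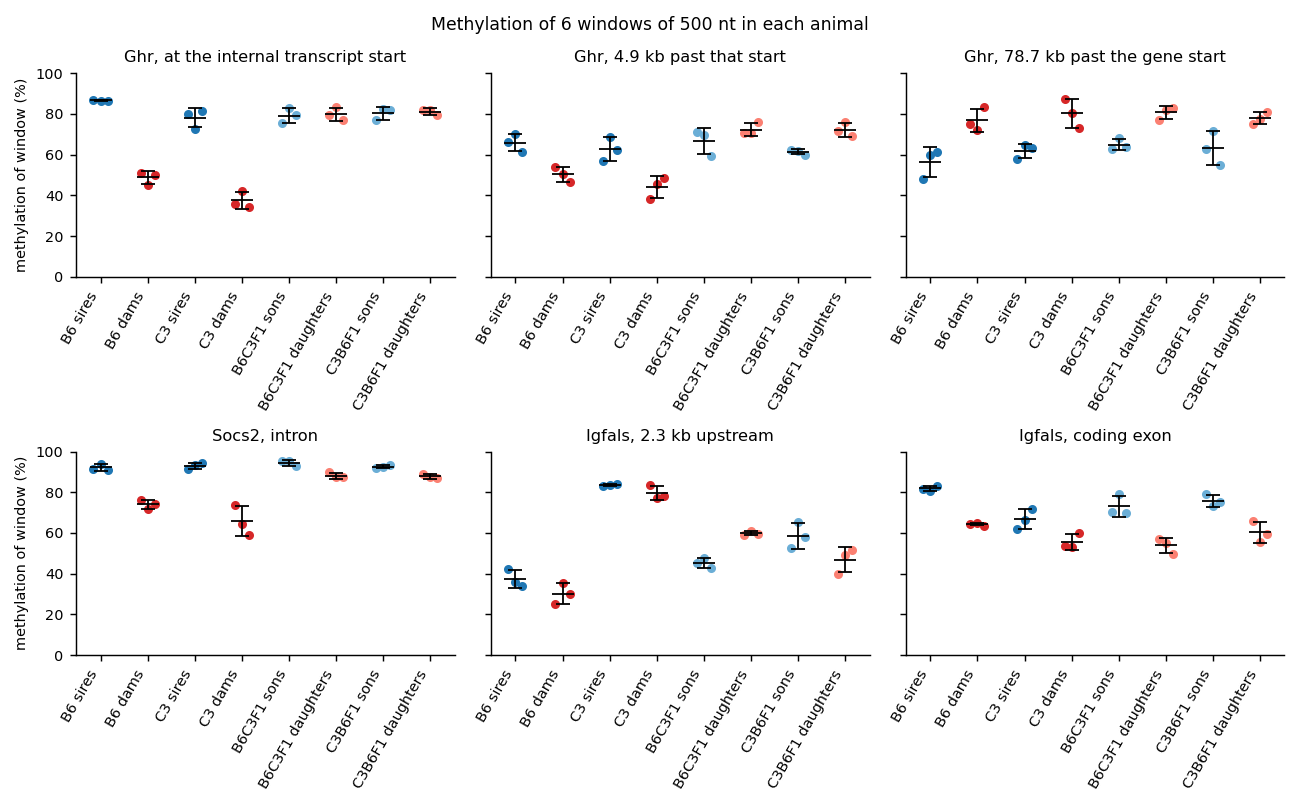
Percent methylation of 6 windows in the 24 animals by group (3 per group); points are animals and bars are mean ± SD. Dams of both strains stand apart from every other group at the Ghr internal start and in the Socs2 intron, and B6 from C3 parents upstream of Igfals, with F1 animals between them.

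The second called window of Ghr, chr15:3416501-3417000, lies in an intron 4893 bp past the internal start and has 6 CpGs. B6 sires had 66.3%, 69.9% and 61.5% and B6 dams 54.1%, 50.5% and 46.7%. C3 sires had 57.0%, 68.9% and 62.1% and C3 dams 38.3%, 45.4% and 48.7%. Every dam was below every other animal, and sires and sons overlapped. F1 sons ranged from 59.5% to 71.0% and F1 daughters from 69.1% to 75.9%. Dams differed from daughters by −25.0 points (log2 ratio −1.53 ± 0.16, SE, limma adjusted p = 5.7e-07) and from sires by −17 points (adjusted p = 0.000187). Daughters were 8.2 points above sons (adjusted p = 0.217), and the difference between the parental and the F1 sex difference was −25.2 points (adjusted p = 0.000847).

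At single CpGs, with the reads of 6 animals pooled, the lower methylation of dams was seen at part of the positions. Between positions 3416501 and 3421500 lie 26 CpGs. This interval spans both called windows, so the counts in it are not independent of the calls. Dams were at least 20 points below sires at 11 of them, and at 9 each single dam was below each of the other 18 animals. At none of the 26 did daughters differ from sons by 20 points. In the first printed stretch, the CpG at 3421115 had 55.4% in sires, 17.8% in dams, 51.6% in sons and 54.3% in daughters. In the first exon of the internal transcript, the CpG at 3421486 had 95.4% in sires and 33.3% in dams. In the second stretch the CpG at 3416613 had 67.2%, 36.8%, 62.4% and 74.6% in sires, dams, sons and daughters.

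**Figure D3:**
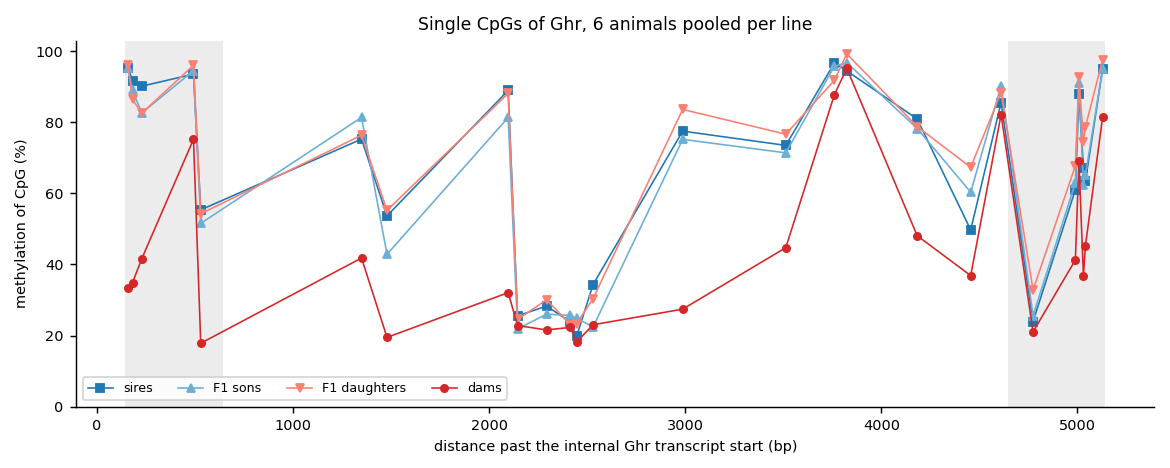
Percent methylation of single CpGs around the internal transcript start of Ghr against distance from that start, with reads of 6 animals pooled per line for sires, F1 sons, F1 daughters and dams; shading marks the 2 called windows. The line of the dams runs below the other lines in both shaded windows.

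The position of the internal start divided Ghr, a split chosen after its values were seen and given without a test. Of 107 tested windows, 59 lay downstream of it and 48 upstream. Downstream, 4 windows differed between dams and sires at an adjusted p below 0.05 (background 0.974%) and all 4 were lower in dams. Dams were also lower than daughters at 10 downstream windows (background 0.181% for both directions together), 7 of them by at least 10 points. No downstream window passed the test as higher in dams than in sires or daughters, or in daughters than in sons, although the daughters' mean was above that of sons at some, among them the called window from 3416501. Beside the called windows these include chr15:3322001-3322500, where sires had 81.6% ± 2.6, dams 69.7% ± 6.8, sons 76.6% ± 7.1 and daughters 85.2% ± 2.3. Dams were 15.5 points below daughters there (−15.5, limma adjusted p = 0.000466) and the sex difference of the parents was 20.5 points more negative than that of the F1 animals (−20.5, adjusted p = 0.0048). The other 4, starting at 3373001, 3392501, 3395501 and 3407001, differed by −10.2, −11.2, −11.3 and −12.5 points between dams and daughters.

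Upstream of the internal start the direction was the opposite. At 7 upstream windows dams were higher than sires at an adjusted p below 0.05 and at none lower (background 0.974% for both directions together). Of these, 5 differed by at least 10 points, where 0.333% of all windows were higher and 0.240% lower in dams. The largest, chr15:3454501-3455000, is intronic, 78741 bp past the gene start. B6 sires had 47.8%, 59.8% and 61.2% and B6 dams 75.0%, 72.2% and 83.2%. C3 sires had 57.8%, 64.6% and 63.2% and C3 dams 87.4%, 80.3% and 73.0%. No male of either generation reached the lowest female. The mean was 59.1% ± 6.0 in sires, 78.5% ± 6.1 in dams, 64.0% ± 5.6 in sons and 79.3% ± 3.2 in daughters. Dams were 19.5 points above sires (adjusted p = 6.64e-05) and daughters 15.3 points above sons (adjusted p = 0.00379), and dams differed from daughters by −0.8 points (adjusted p = 0.986). When windows were shifted by 250 nt this difference was 21.5 points in parents and 19.9 in F1 animals.

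At chr15:3448001-3448500 the sires of the strains differed as well. B6 sires had 45.9%, 44.4% and 47.5% and C3 sires 24%, 26.4% and 27.6%. B6 dams had 51.2%, 57.5% and 47.8% and C3 dams 65.9%, 49.7% and 56.9%. The sires of the strains did not overlap (19.9 points, adjusted p = 0.000497) while the dams did (−5.3 points, adjusted p = 0.622). Dams exceeded sires by 31.5 points in C3 (adjusted p = 2.39e-06) and by 6.2 points in B6 (adjusted p = 0.76), but the test of the strain difference in this sex effect gave an adjusted p of 0.294. Sons had 37.5% ± 4.4 and daughters 47.6% ± 2.4 (10.1 points, adjusted p = 0.129). The windows starting at 3458001, 3514501 and 3518001 were 12.3, 10.2 and 12.4 points higher in dams than in sires.

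**Figure D4:**
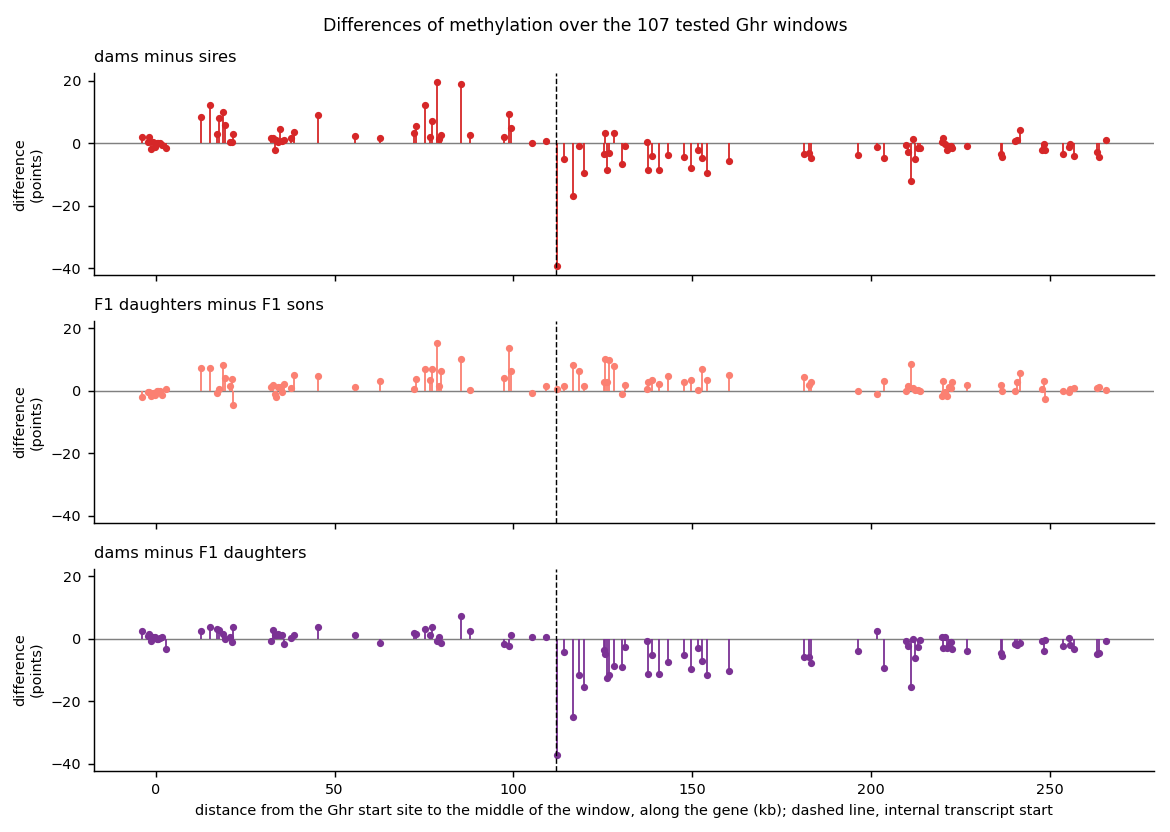
Difference in percent methylation (points) at the 107 tested windows of Ghr against distance along the gene in kb, for dams minus sires, F1 daughters minus F1 sons and dams minus F1 daughters; the dashed line marks the internal transcript start. Dams are below sires and daughters by up to about 39 points just past that start, and the windows before it that passed the test are higher in dams than in sires.

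The kinase gene Jak2 had no window that passed the test with 10 points in any of the 6 comparisons. Its largest difference was at chr19:29324501-29325000, 1567 bp upstream of the gene, with 58.7% ± 6.6 in B6 and 66.4% ± 3.9 in C3 parents (−7.6 points, limma adjusted p = 0.0838). The groups overlapped. Between the strains 4 of its 67 tested windows had an adjusted p below 0.05 (background 6.63%), and between dams and sires none had, with 4 at an unadjusted p below 0.05 (background 11.6%).

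The 2 STAT5 genes lie side by side on chromosome 11 and share 2 tested windows. In Stat5a the largest difference was in an intron, chr11:100730001-100730500. Sires had 32.1% ± 7.0 (range 19.8 to 38.6) and dams 47.3% ± 5.8 (range 40.7 to 54.9). Dams stood above all sires (15.2 points, adjusted p = 0.00459), while sons with 33.9% ± 5.7 and daughters with 36.8% ± 4.1 overlapped (2.9 points, adjusted p = 0.919). Dams and daughters differed by 10.6 points with an adjusted p of 0.272. At chr11:100741001-100741500, in a coding exon, B6 parents had 70.2% ± 3.6 and C3 parents 80.5% ± 3.5 (−10.3 points, adjusted p = 0.000328).

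In Stat5b 3 windows passed with 10 points or more between the strains (2.73% of 110), near the background of 2.39%. None passed in the other 5 of the 6 comparisons. Within a strain, 1 of its 110 windows passed with 10 points between dams and sires of B6 (background 0.244%) and 2 between those of C3 (background 0.442%), all higher in dams. Its largest difference was at chr11:100644501-100645000, in a coding exon near the end of the gene, with 62.4% ± 8.0 in B6 and 76.7% ± 6.5 in C3 parents (−14.3 points, adjusted p = 0.000722). The adjoining window from 100644001 differed in the same direction by −12.1 points. An intronic window from 100673001 was the reverse, with 88.2% ± 3.9 in B6 and 75.7% ± 5.9 in C3 (12.5 points, adjusted p = 0.000521). F1 animals lay between the parental means in all 3 windows, with 68.0% ± 5.2 in the first.

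Among the feedback inhibitors, Socs2 was the one with a window called in the 6 comparisons. The protein binds phosphorylated Ghr and limits growth hormone signalling. The window chr10:94873501-94874000 has 13 CpGs and lies in an intron 6063 bp past the gene start. B6 sires had 91.6%, 94.0% and 91.0% and B6 dams 76.4%, 72.0% and 74.2%. C3 sires had 91.5%, 93.2% and 94.1% and C3 dams 73.7%, 64.6% and 59.1%. Each dam was below each other animal. Sons had 95.2%, 95.2% and 92.7% (B6C3F1) and 92.1%, 92.3% and 93.3% (C3B6F1). Daughters had 89.7%, 87.3% and 87.3% and 89.0%, 87.6% and 86.8%. No daughter overlapped a son, yet daughters stood far nearer to males than to dams. Dams were 22.6 points below sires (−22.6, log2 ratio −2.38 ± 0.18, SE, limma adjusted p = 2.11e-10), with −18.0 points in B6 and −27.1 in C3. Daughters were 5.5 points below sons (−5.5, adjusted p = 0.00592), and dams 18.0 points below daughters (−18.0, adjusted p = 3.83e-06). The sex difference of the parents exceeded that of the F1 animals (−17.1 points, adjusted p = 0.019).

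In the printed stretch of Socs2, each dam was below each other animal at 8 of the 9 CpGs. The exception was the CpG at 94873947, where sires had 64.8% and sons 64.6% while daughters had 33.7% and dams 18.6%. When windows were shifted by 250 nt, so that 1 window held 9 CpGs of this part, dams were 37.4 points below sires (−37.4) and daughters 8.7 below sons (−8.7). The stretch was taken from the called window and just past it. The count of 8 and the step in the shifted window are therefore not independent of the call.

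The low methylation of dams reached further along Socs2. The stretch counted here was bounded by windows that passed as lower in dams, so its counts are not independent of that choice. Of 70 CpGs between 94871501 and 94876500, 19 were at least 20 points lower in dams than in sires, 6 were at least 20 points lower in daughters than in sons, and none was 20 points higher in females. At chr10:94872001-94872500 sires had 91.7% ± 2.1, sons 92.5% ± 2.2, daughters 83.8% ± 3.2 and dams 74.1% ± 2.3. That order was stepped, with daughters below sons (−8.7 points, adjusted p = 0.000249) and dams below daughters (−9.7 points, adjusted p = 0.0361). The window from 94871501 was 18.9 points lower in dams than in sires (−18.9, adjusted p = 8.52e-05) and that from 94875501, over a coding exon, 11.9 points lower (−11.9, adjusted p = 0.000294). In these windows the differences between daughters and sons, −8.3 points (adjusted p = 0.397) and −4.9 points (adjusted p = 0.536), did not pass the test. At the single CpG at 94876340, sires had 62.8%, sons 62.6%, daughters 27.6% and dams 19.5%, so that at this position daughters were close to dams.

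**Figure D5:**
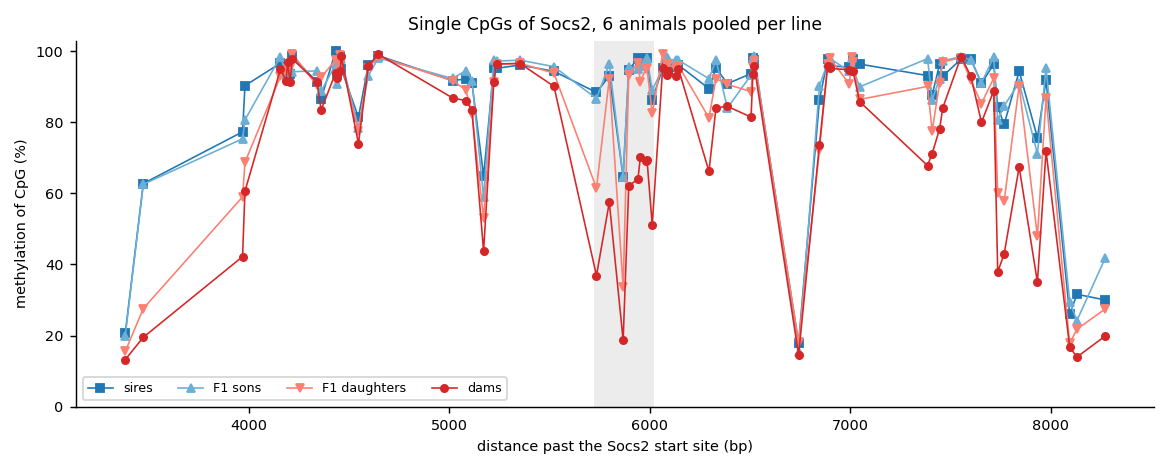
Percent methylation of single CpGs in Socs2 against distance from the start site, with reads of 6 animals pooled per line for sires, F1 sons, F1 daughters and dams; shading marks the printed sequence. Dams are lowest in the shaded stretch, and daughters lie between dams and sons at 94873947 (33.7%) and at 94876340 (27.6%), where dams had 18.6% and 19.5%.

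Socs3, an inhibitor shared by many cytokine receptors, differed between the sexes in the F1 animals. The window chr11:117828501-117829000 holds 14 CpGs, part of them in its coding exon. B6C3F1 sons had 53.6%, 59.9% and 53.8% and their sisters 29.2%, 37.9% and 39.1%. C3B6F1 sons had 58.5%, 58.3% and 51.1% and their sisters 41.3%, 30.9% and 39.3%. The sexes did not overlap in either cross. The mean was 55.8% ± 3.5 in sons and 36.3% ± 5.0 in daughters (−19.6 points, log2 ratio −1.15 ± 0.17, SE, limma adjusted p = 0.000155), just short of 20 points. Parents overlapped, with 48.4% ± 6.6 in sires and 42.9% ± 4.4 in dams (−5.5 points, adjusted p = 0.479). The difference between the F1 and the parental sex difference was 14.1 points with an adjusted p of 0.399, so that it was not shown to differ between generations. The windows from 117827501 and 117828001, over its untranslated end, were lower in daughters by 14.1 points (−14.1, adjusted p = 0.0112) and 13.4 points (−13.4, adjusted p = 0.0217). Of 27 CpGs in these 3 windows, 11 were at least 20 points lower in daughters than in sons. None was 20 points lower in dams than in sires. The windows were picked for being lower in daughters, so the count of 11 is not independent of that choice.

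Cish, the inhibitor first named as a cytokine-inducible SH2 protein, differed by strain and by sex in different windows. At chr9:107204501-107205000, in the last exon, B6 parents had 59.5% ± 3.9 (range 52.2 to 62.9) and C3 parents 76.2% ± 1.0 (range 75.2 to 77.8). The strains did not overlap (−16.8 points, adjusted p = 1.34e-06), and F1 animals lay between them with 70.0% ± 3.6. In a window shifted by 250 nt this difference was −20.9 points and passed the 20 points. At chr9:107202001-107202500, in a coding exon without SNVs, sires had 73.1% ± 7.7, dams 57.4% ± 3.5, sons 71.2% ± 4.9 and daughters 60.0% ± 5.1. Dams were 15.7 points below sires (−15.7, adjusted p = 0.000733). By strain the step was −22.2 points in C3 (adjusted p = 0.000992) and −9.1 in B6 (adjusted p = 0.587), with an adjusted p of 0.878 for the difference between strains. Daughters and sons differed by −11.2 points (adjusted p = 0.0834). Upstream of the gene, the window from 107195001, which also holds part of an exon of Gm17040, was lower in B6 than in C3 parents by 13.6 points (−13.6, adjusted p = 0.000593). Cish was also the member with the most SNVs between the strains, 82 in its region or 6.43 per kb, against 1.14 per kb over the autosomes. The windows from 107204501 and 107195001 hold 5 and 2 of them, and the part of SNVs in these differences was not tested.

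In Igf1, the growth factor that carries much of the effect of growth hormone on the body, the largest difference was in an intron, chr10:87328501-87329000, with 52.4% ± 5.8 in B6 and 36.7% ± 5.9 in C3 parents (15.7 points, adjusted p = 0.000305). The ranges overlapped slightly, 43.8% to 60.5% against 32.1% to 46.7%. When each CpG had the same weight the means were 59.3% and 51.2%, with an adjusted p of 0.12. Igf1 was higher in B6 also at the windows from 87317501, 3259 bp upstream, and 87360001, both by 11.7 points. No Igf1 window differed by 10 points between dams and sires, daughters and sons or dams and daughters at an adjusted p below 0.05.

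Igfals, which encodes the acid-labile subunit that holds Igf1 in serum complexes, had the largest strain difference of the 10 genes. The window chr17:25012001-25012500 lies 2349 bp upstream of the start and has 5 CpGs, all in the printed stretch. B6 sires had 42.5%, 35.7% and 33.8% and B6 dams 25.0%, 35.4% and 30.0%. C3 sires had 83.0%, 83.3% and 84.3% and C3 dams 83.7%, 77.3% and 78.4%. The F1 animals had 40.0% to 65.2% and a mean of 52.6% ± 7.9, with 1 of the 12 inside the range of the B6 parents and none in that of C3. B6 parents had 33.7% ± 5.9 and C3 parents 81.7% ± 3.0 (−47.9 points, log2 ratio −3.03 ± 0.15, SE, adjusted p = 1.13e-15). The difference was −46.2 points among sires and −49.6 among dams. With an equal weight for each CpG the means were 40.2% in B6 and 76.9% in C3 parents.

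Depth and SNVs differed between the strains in the same Igfals window. At its 5 CpGs in order, B6 parents had 12.3%, 22.2%, 42.6%, 65.5% and 56.8% and C3 parents 85.6%, 80.0%, 40.0%, 87.8% and 85.7%. The strains thus differed most at the first 2 CpGs. The reads of the 6 animals fell from 179 in B6 and 132 in C3 at the first CpG to 94 and 15 at the CpG in the middle, where the strains were alike. The window holds 5 SNVs and the whole region 45, or 4.35 per kb. Reads of both strains were aligned to mm9, and the part of these SNVs in the difference was not tested. The window from 25013001, with 1 SNV, differed in the same direction, with 54.7% ± 4.6 in B6 and 71.6% ± 3.6 in C3 parents (−16.9 points, adjusted p = 8.19e-07).

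The coding exon of Igfals was lower in females of both generations. At chr17:25017501-25018000, with 23 CpGs and no SNV, B6 sires had 81.8%, 80.8% and 83.3% and B6 dams 64.6%, 64.6% and 63.6%. C3 sires had 62.0%, 66.3% and 71.9% and C3 dams 53.4%, 53.1% and 59.9%. Sires exceeded the dams of their own strain without overlap, while C3 sires overlapped B6 dams. Sons had 70.4%, 79.2% and 69.9% (B6C3F1) and 79.0%, 73.2% and 75.0% (C3B6F1), and daughters 56.9%, 55.2% and 49.8% and 65.9%, 55.7% and 59.7%. Every daughter was below every son. Dams were 14.5 points below sires (−14.5, log2 ratio −1.01 ± 0.15, SE, adjusted p = 8.84e-05) and daughters 17.3 points below sons (−17.3, log2 ratio −1.13 ± 0.15, SE, adjusted p = 3.37e-05). Dams and daughters differed by 2.7 points (adjusted p = 0.849). B6 parents were 12.0 points above C3 parents (adjusted p = 0.000249). In the neighbouring window from 25017001 the differences between the sexes were −17.6 points in parents (adjusted p = 0.00421) and −15.3 in F1 animals (adjusted p = 0.0291). Of 68 CpGs from 25016001 to 25018500, 11 were at least 20 points lower in dams than in sires and none 20 points higher. In daughters 13 were at least 20 points lower than in sons and none 20 points higher. This interval was set around the windows that passed as lower in dams, so the counts are not independent of that choice.

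Bcl6, whose product represses part of the STAT5 targets, passed the test with 10 points in 3 windows between dams and sires (5.88% of 51, background 0.573%). None passed between the strains over both sexes (background 2.39%). At chr16:23971001-23971500, in a noncoding exon, sires had 74.0% ± 3.3 (range 71.3 to 79.9) and dams 57.3% ± 7.3 (range 47.0 to 69.4), without overlap (−16.7 points, adjusted p = 0.000248). Within the strains, dams differed from sires by −20.6 points in C3 (adjusted p = 0.00309) and by −12.9 points in B6 (adjusted p = 0.238), and the difference between the strains did not pass the test (adjusted p = 0.96). Sons had 72.2% ± 3.8 and daughters 65.8% ± 3.7 (−6.4 points, adjusted p = 0.563), and dams differed from daughters by −8.5 points (adjusted p = 0.377). The windows from 23973001 and 23973501 were lower in dams by 13.0 points (−13.0, adjusted p = 0.0125) and 12.5 points (−12.5, adjusted p = 0.00625).

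Read counts were also summed over each gene's region and fitted over all 21218 genes. Between dams and sires Igfals alone passed an adjusted p below 0.05, 1 of 10 where 13.4% of all genes did, with 52.3% ± 1.5 in sires and 44.5% ± 1.6 in dams (−7.82 points, limma adjusted p = 0.000912). Between daughters and sons 2 passed, against a background of 0.580%: Igfals fell by 6.41 points in daughters (adjusted p = 0.0360) and Ghr was 2.19 points higher (adjusted p = 0.0316). That count ran from 0 to 2 when 1 animal was left out and moved by over 1.5 times in 15 of 24 such fits. Between dams and daughters Ghr passed, against 0.844%, with −2.68 points (adjusted p = 0.0161), but not once C3 dam replicate 1 was left out. Between the strains Stat5a (−2.31 points), Jak2 (−2.23) and Ghr (−1.34) passed, 3 of 10 where 27.9% of genes did, and the median of all genes was −0.964 points. With an equal weight for each CpG these differences were −1.45 (adjusted p = 0.000309), −0.53 (adjusted p = 0.0324) and −0.79 points (adjusted p = 0.0650). Among dams alone the summed counts gave −3.85, −4.03 and −2.00 points (limma adjusted p = 0.0123, 0.0146 and 0.0394). Among sires alone they gave −0.776, −0.437 and −0.676 points (adjusted p = 0.709, 0.868 and 0.603). The median of all genes was −1.71 points among dams and −0.188 among sires. The test of the strain difference by sex gave adjusted p of 0.257, 0.237 and 0.429. With 1 animal left out, 0 to 3 genes passed between the strains over both sexes, and the count moved by over 1.5 times in 7 of 24 fits. Between sires and sons none passed by limma or the quasi-binomial test, against 0.00471% by limma, and none had an unadjusted p below 0.05. Between the crosses none passed, against 0.0189% by limma, and 5 had an unadjusted p below 0.05 by either test (background 17.1% by limma). Sums weigh a CpG by its reads. With an equal weight for each CpG, 5, 3, 3 and 2 members passed in the strain, dam and sire, F1 sex and dam and daughter comparisons, against 56.5%, 28.7%, 5.10% and 10.7% of all genes.

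The sequence of the called windows was searched on both strands for the letters TTCNNNGAA, which STAT5 dimers bind, and for the E-box CANNTG. The STAT5 letters were in 18.8% of the 528 member windows and in 15.7% of all tested windows. Of the called windows, the Ghr window from 3416501 held them once, outside the printed stretch, and those of Ghr from 3421001, of Socs2 and upstream of Igfals did not. E-box letters were in 92.2% of member windows and 93.8% of all. The called Socs2 window held 3, 1 of them outside the printed stretch. That stretch also held 3, at positions 29, 97 and 160, the first of them outside the called window. The Ghr windows from 3416501 and 3421001 held 6 and 1, all outside the printed stretches. The Igfals window from 25012001 held 3, 1 of them in the printed stretch.

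Markers of the cell types of liver were read within 500 bp of their start sites. The 6 hepatocyte genes had group means between 19.3% and 26.5%. B6 sires stood at 26.5% ± 1.9 (SD, range 24.4 to 28.0) and B6 dams at 19.5% ± 3.2 (range 16.7 to 23.0), without overlap. C3 sires stood at 19.3% ± 2.9 and C3 dams at 20.1% ± 1.3, and overlapped. The 6 genes of leukocytes and Kupffer cells had group means between 77.1% and 81.5%. They were 77.8% in B6 sires and 77.1% in B6 dams, and 81.5% in C3 sires and 81.4% in C3 dams, so that dams and sires of a strain differed by less than 1 SD. The 4 endothelial genes ranged between groups from 44.9% to 48.3% and the 4 of stellate and bile duct cells from 27.9% to 31.5%. The part of cell composition in the differences was not tested. In bulk liver, fewer cells of a type and lower methylation in each cell cannot be told apart.

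Of 35 other genes of the pathway, listed by name, 2411 windows were tested. The list was made with earlier results of these data known. It holds Prlr, which the authors give as an example of regions lower in dams than in sires. The counts below are therefore not independent of the choice of genes. Between dams and sires 26 were called (1.08%, background 0.104%), with 3 higher and 23 lower in dams, in 6 genes, of which Cux2, Prlr, Sh2b1, Socs7 and Tox had the largest differences. Cux2, a repressor expressed in female liver, held 7 of these and Prlr, the prolactin receptor that also signals through Jak2 and STAT5, held 14. At the largest, Cux2 chr5:122451001-122451500, sires had 78.2% ± 5.9, dams 19.3% ± 4.9, sons 76.9% ± 12.6 and daughters 25.4% ± 5.6. Dams were 58.9 points below sires (−58.9, adjusted p = 5.79e-11) and daughters 51.5 points below sons (−51.5, adjusted p = 3.85e-09). Prlr chr15:10156001-10156500 had 52.7% ± 5.5 in sires and 15.4% ± 7.9 in dams (−37.3 points, adjusted p = 1.86e-08). Sh2b1, an adaptor of Jak2, was higher in females at chr7:133621001-133621500, with 67.0% ± 5.4 in sires and 93.2% ± 2.1 in dams.

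Between daughters and sons 9 windows of these other genes were called (0.373%, background 0.0510%), in Cux2, Prlr, Sh2b1 and Socs7, 3 higher and 6 lower in daughters. Between dams and daughters 3 were called (0.124%, background 0.0198%), all in Prlr and all lower in dams. The largest was chr15:10279501-10280000, with 89.1% in sires, 61.1% in dams, 92.1% in sons and 86.9% in daughters (dams minus daughters −25.8 points, adjusted p = 9.52e-09). Between the strains 8 were called (0.332%, background 0.494%), in 6 genes, of which Igfbp4, Socs1, Irs1, Onecut1 and Igfbp5 had the largest differences. The largest was in Igfbp4, chr11:98914001-98914500, with 33.5% ± 3.8 in B6 and 73.3% ± 4.3 in C3 parents. Between sires and sons and between the crosses none was called.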

How the data were processed

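Liver DNA of 24 mice was analysed by whole-genome bisulfite sequencing, and FOXA1 chromatin samples of the series were not analysed here. The authors aligned reads to mm9 and the phage lambda genome with Bismark 0.7.8 and Bowtie 0.12.8, removed duplicates, clipped read ends and overlapping mates, and joined all libraries made from 1 animal. The authors deposited raw read counts per CpG, methylated and unmethylated separately and not normalized, at positions that were CpG in mm9 and in the reads of both strains. They also deposited a list of strain variants (SNVs). All 48 count columns were used, and 0 columns belonged to other samples. Groups were taken from the labels, 3 animals in each of 8.

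Gene positions came from GENCODE vM1 on mm9. Counts were summed over windows of 500 nt (5 or more CpGs, 30 or more reads per animal), and log2 of (methylated + 1)/(unmethylated + 1) was fitted with limma 3.58.1 in R 4.3.3 with 8 group means and trended, robust variances. P-values were adjusted by Benjamini-Hochberg over all 1456902 autosomal windows. A window was called at an adjusted p below 0.05 and 20 points of mean methylation. The same fit was made on counts summed over the region of each autosomal protein-coding gene. Percentages are means over animals of the share of methylated reads, and their SD is over animals. Depth was 19.4 to 32.8 reads per autosomal CpG and animal, and windows near 30 reads are the least precise. Fits were tested on simulated data. The data were handled with pandas 2.3.3 and numpy 2.4.6 in Python 3.11.15 and drawn with matplotlib 3.10.9.

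Every member was named, with its called windows (at most 3 per comparison, by size), the window at its start site and, where none was called, its largest difference. Of the other pathway genes, at most 5 per comparison with a called window were named. The members, the lists and this rule were chosen with earlier results of these data known. Alternatives were a pseudocount of 5, at least 100 reads, at least 2 CpGs, windows shifted by 250 nt, a quasi-binomial test, a replicate block, 10 points, and leaving out each animal. A mean that weighs each CpG equally, rounded to whole methylated reads at each animal's depth for the fit, was added after seeing the data. Each animal was its own sample, so that p-values measure the spread between animals.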

Additional observations from a re-analysis of the deposited data

Results flagged for a closer look

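In 4 windows the difference between the sexes was not the same in the parents as in the F1 animals, by limma's test of the difference itself, with Benjamini-Hochberg adjustment over all windows, where 0.0428% of all windows passed. The difference of dams minus sires less that of daughters minus sons was −40.0 points at Ghr chr15:3421001-3421500 (adjusted p = 1.36e-08), −25.2 points at Ghr chr15:3416501-3417000 (adjusted p = 0.000847), −20.5 points at Ghr chr15:3322001-3322500 (adjusted p = 0.0048) and −17.1 points at Socs2 chr10:94873501-94874000 (adjusted p = 0.019). In each the dams stood below the daughters, and breeding history, hybrid genome, origin and housing cannot be told apart. No member window passed for a difference of the sex effect between B6 and C3 parents by limma (0.00178% of all windows did), and 41 had an unadjusted p below 0.05, as did 5.42% of all windows.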

How the results depend on the processing

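The windows of Ghr from 3421001 and of Igfals from 25012001 rest on few reads (at least 96 and 37 per animal) and are lost when 100 reads are required. Without those windows, called member windows numbered 0 between strains, 1 between dams and sires and 1 between dams and daughters. The share of all windows called at that filter is not given here. With at least 2 CpGs, 7 were called between dams and sires and 4 between dams and daughters. Shifted windows gave 5 between dams and sires and 1 between daughters and sons, a Socs3 window, and the Ghr window from 3421001 and the Igfals window from 25012001 could not be tested, since their CpGs fell into windows with under 5. A step of 10 points gave 12, 19, 6 and 8 in the strain, dam and sire, F1 sex and dam and daughter comparisons. With an equal weight for each CpG, an alternative chosen after seeing the data, 1 window was called between daughters and sons, and 5, 3 and 2 genes in the strain, dam and sire and dam and daughter comparisons.

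Leaving out 1 animal gave 2 to 4 windows between dams and sires (4 without B6 sire replicate 3) and 0 to 1 between daughters and sons, where 7 of the 24 fits called the Socs3 window; the other window counts stayed at their values. Gene counts ran from 0 to 3 between strains (0 without B6 sire replicate 1 or B6 dam replicate 1, and 1 without B6 sire 2, B6 dam 3, C3 sire 2, C3 dam 2 or C3 dam 3), from 0 to 2 between daughters and sons (0 without B6C3F1 son 1 or 3, B6C3F1 daughter 3, C3B6F1 son 1 or 3 or C3B6F1 daughter 2 or 3), from 0 to 1 between dams and daughters (0 without C3 dam replicate 1) and from 0 to 1 between the crosses (1 without C3B6F1 son replicate 1). Over 12 differences of named windows, 347 values under the alternatives kept their direction and stayed called or uncalled as in the main fit. A call was an adjusted p below 0.05 and at least 20 points together. Another 8 were called newly, all of Socs3, and 0 reversed. The differences of Cish, Igf1, Stat5a, Stat5b, Socs3, Bcl6 and Jak2 were uncalled in the main fit. Most values came from leaving out 1 animal, and such fits share nearly all animals. Shifted windows were not among these values, and 5 of the 12 had no value at 100 reads. The adjusted p of the Igf1 window, which was under 20 points throughout, rose to 0.12 with an equal weight for each CpG, and that of the Jak2 window fell below 0.05 without B6 sire replicate 2 or B6 dam replicate 3.

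The labels do not say whether a replicate number marks a family, and the animals were not treated as paired. Over 84 pairs with the same number, the correlation of deviations from the group means ran from −0.0088 to 0.0649, none above 0.1. Some of these pairs, such as a B6 sire and a B6 dam, cannot be of 1 family, so these values cannot decide whether families differed. Of 24 animals, 17 correlated best with their own number, a hint of pairing from the data and not from the design. With the replicate block, 1, 2, 0, 2, 0 and 0 windows and 3, 1, 2, 1, 0 and 0 genes were called in the 6 comparisons, as without it. No share over all windows or genes is given for this fit. The block joins animals of both crosses under 1 number, so it could not take out an effect of single families.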

Other observations

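Windows with 2 to 4 CpGs were outside the tests of the report, and some of them in Ghr and Socs2 separated the groups when at least 2 CpGs were required. In Socs2, chr10:94876001-94876500 had 40.3% ± 4.2 in sires, 16% ± 2.8 in dams, 40.6% ± 4.3 in F1 sons and 21.6% ± 3.9 in F1 daughters (SD, n = 6 each). Dams were 24.3 points below sires (−24.3, limma adjusted p = 5.33e-07) and daughters differed from sons by −19 points (adjusted p = 0.000151). At chr10:94874001-94874500, next to the called Socs2 window, sires had 93.0% ± 1.9 and dams 68.7% ± 4.2 (−24.3 points, adjusted p = 1.19e-06).

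In Ghr the same filter added windows on either side of the internal start. Upstream of it, chr15:3482001-3482500 had 40.6% ± 3.8 in sires, 73.1% ± 8.5 in dams, 37.3% ± 11.8 in sons and 56.9% ± 5.5 in daughters, with dams 32.5 points above sires (adjusted p = 7.27e-05). Downstream, dams were below sires at chr15:3361001-3361500 (−26.1 points, adjusted p = 0.000156) and chr15:3394001-3394500 (−21.0 points, adjusted p = 0.00462), and below daughters at chr15:3417001-3417500 (−23.4 points, adjusted p = 2.66e-05).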
